A study of Mus musculus with 6 samples.

Results

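The long noncoding RNA genes with the higher array signals in Melan-a cells were 154 of the 897 long noncoding RNA genes with a value in the deposited table. They were selected on their mean signal, as genes that the RefSeq mouse gene table types as lncRNA and whose mean signal over the 6 arrays was log2 5.36 or more, and the brightest transcript cluster (the array's unit for a transcript) stood for each gene. The level used in the choice, a mean over both groups, is given as a description, and a signal above it does not show that a transcript was above background. Gas5, Snhg3 and Snhg12 belong to the same class and were left out of the set by its definition, and none of them had a value of its own in the table. The table covers chromosomes 1 to 4, which held 26, 62, 27 and 39 of the 154 genes. By symbol, 83 carry a provisional Gm name, 49 a Rik name and 13 the ending os for a transcript on the opposite strand of a named gene, and 9 have other names. Over the whole series 7623 genes had a name of their own, and 5336 of them, all 154 included, were bright enough to be tested.

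Melan-a is an immortalised line of pigmented mouse melanocytes from C57BL/6, labelled female, and every sample was this one line, grown with the phorbol ester TPA at 200 nM. The RNA integrity number was 10.0 throughout. The 3 siDicer samples were transfected with 50 pmol of an siRNA against Dicer and the 3 siScr samples with the same amount of a control siRNA, and 100 ng of total RNA from each was read on an Affymetrix Clariom D mouse array. Replicates 1, 2 and 3 of both groups came from cell passages 47, 54 and 56, so each passage gave 1 siDicer and 1 siScr array. The titles give 48 h after transfection, whereas the protocol describes fresh medium at 6 h and lysis 24 h later. A transient siRNA is meant to lower Dicer, not to delete it. Dicer1 itself was not analysed here, so the depth of the knockdown was not measured.

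Long noncoding RNAs are transcribed mostly by RNA polymerase II, and many are capped, spliced and polyadenylated like messenger RNAs but carry no long conserved open reading frame. Dicer cuts hairpin precursors into mature microRNAs, which guide Argonaute proteins to messenger RNAs and also to some long noncoding RNAs, and several long noncoding RNAs are themselves hosts or binding partners of microRNAs. Among the genes measured here, Norad binds Pumilio proteins, Oip5os1 (also called Cyrano) binds a microRNA and directs its decay, Morrbid acts next to the apoptosis gene Bcl2l11, and genes named Snhg carry small nucleolar RNAs in their introns.

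The sequences around 5 of the gene starts show the kinds of gene in the set. They come from RefSeq on GRCm38.p6 and run 5′ to 3′ on the gene's own strand. A630077J23Rik, the gene with the largest difference between the groups, is shown from 250 bases before its start to 50 after it (chr4:43751609-43751908, plus strand). Its capitals mark a 9-base run, which is also part of the primer binding site that some retroviruses use with lysine tRNA, and CACATG, an E-box letter string.
A630077J23Rik: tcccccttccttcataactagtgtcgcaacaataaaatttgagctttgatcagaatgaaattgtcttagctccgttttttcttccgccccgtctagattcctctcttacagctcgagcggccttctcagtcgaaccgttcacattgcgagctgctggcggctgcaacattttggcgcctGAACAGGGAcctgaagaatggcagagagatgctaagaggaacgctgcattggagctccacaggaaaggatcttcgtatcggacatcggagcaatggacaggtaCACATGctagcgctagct
D930015M05Rik lies opposite the clock gene Cry2 and is shown over the same span (chr2:92408642-92408941, plus strand), with CACATG and its reverse complement CATGTG in capitals.
D930015M05Rik: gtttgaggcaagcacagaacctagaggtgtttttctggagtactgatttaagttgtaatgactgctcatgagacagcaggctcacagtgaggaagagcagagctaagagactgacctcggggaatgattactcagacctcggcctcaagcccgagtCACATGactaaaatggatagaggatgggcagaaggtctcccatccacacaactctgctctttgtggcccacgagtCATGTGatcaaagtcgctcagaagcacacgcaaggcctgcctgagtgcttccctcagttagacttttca
Gm26232 had the highest signal of the set, and its start region (chr3:96450389-96450688, plus strand) holds a small nuclear RNA gene of 166 bases, LOC115489800, in capitals. The window runs from 250 bases before the start to 50 after it, and the capitals lie wholly before that start.
Gm26232: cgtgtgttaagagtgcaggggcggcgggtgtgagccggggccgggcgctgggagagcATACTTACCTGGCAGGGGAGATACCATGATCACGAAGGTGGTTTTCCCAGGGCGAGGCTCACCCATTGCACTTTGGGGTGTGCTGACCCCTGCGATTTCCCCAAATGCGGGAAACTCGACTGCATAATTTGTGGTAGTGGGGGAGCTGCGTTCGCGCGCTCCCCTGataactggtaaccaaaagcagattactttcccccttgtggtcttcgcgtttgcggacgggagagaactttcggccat
Oip5os1 (chr2:119594246-119594345, plus strand) and the small nucleolar RNA host Snhg17 (chr2:158361473-158361572, minus strand) are shown from 50 bases before the start to 50 from it. Capitals in Oip5os1 mark a run of 5 pyrimidines that begins with C at the start, and no letters are marked in Snhg17.
Oip5os1: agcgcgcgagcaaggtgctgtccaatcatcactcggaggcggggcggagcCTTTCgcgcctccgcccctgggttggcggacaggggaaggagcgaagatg
Snhg17: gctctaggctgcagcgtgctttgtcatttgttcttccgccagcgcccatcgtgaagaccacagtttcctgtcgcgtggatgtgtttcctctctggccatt
Gm12915 is the 1 gene of the set whose span holds a microRNA gene, Mir698, and its mature sequences are shown with the seed, bases 2 to 8, in capitals.
mmu-miR-698-5p: uGUGGGUGggacagggauguu
mmu-miR-698-3p: cAUUCUCGuuuccuucccu

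The arrays were alike over all 16383 transcript clusters, with pairwise correlations of 0.993 to 0.997, and over the 154 genes the correlations ran from 0.959 to 0.988. The melanocyte markers with a value, 3 of 13 listed, were bright: Pax3 had a mean log2 signal of 10.54, Slc24a5 10.72 and the pigment enzyme Tyrp1 12.83. The mean signal of the 6 measured leukocyte markers lay between 4.06 and 4.20 on all arrays, from 2.84 for Ptprc to 5.22 for Laptm5. That of the 6 keratinocyte markers lay between 4.59 and 4.80, with Flg at 6.90 and Lor at 5.60, both above the level threshold of the set. That of the 4 fibroblast markers lay between 6.77 and 7.20, with Fn1 at 10.75, close to the signals of the melanocyte markers. Their part in the results was not tested. The siDicer array of passage 56 stood apart for the genes described here: 120 of the 154 (77.9%) lay below their own mean over the 6 arrays on it, against 65 to 76 on each of the other 5 arrays. On that array 54.7% of all tested genes lay below their mean, 57.2% of the 2699 protein-coding genes above the same level threshold, and 72.0% of the 300 dimmer tested long noncoding RNA genes. In a bulk sample, fewer cells with a transcript and less of it per cell cannot be told apart.

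The comparison asks which long noncoding RNAs of these melanocytes differ once Dicer is targeted. Over all arrays the difference was smaller than its standard error for 95 of the 154 genes. Of the 154 genes, 53 were higher and 101 lower in siDicer than in siScr (65.6% lower), where 54.5% of all tested genes were lower. The median difference, siDicer minus siScr, was −0.032 on the log2 scale, against −0.009 over all tested genes, and the differences ran from −0.27 to 0.55. After quantile normalisation the median was −0.013, with 90 genes lower (58.4%, against 51.4% of all tested genes), and after median centring −0.021, with 92 lower (59.7%, against 49.0%). For 111 of the 154 the difference was within 0.1 in either direction, for 9 it was beyond 0.2 and for 1 beyond 0.3. Of the 5336 tested genes these were 3601, 467 and 191. The median standard error of a difference was 0.075, larger than the median size of a difference, 0.060. Over all tested genes it was larger as well, 0.077 against 0.064. By limma, with Benjamini-Hochberg adjustment over all 5336 tested genes, 0 of the 154 passed an adjusted p of 0.05, where the background over all tested genes was 0.0187%. At an unadjusted p under 0.05, 10 of the 154 (6.49%) were counted, against a background of 8.51%. Of these, 3 (1.95%) were higher, against 4.59%, and 7 (4.55%) lower, against 3.92%. With passage as a block 1 of the 154 passed, A630077J23Rik, against a background of 1.76% in either direction (1.14% higher and 0.618% lower). With the block 18 (11.7%) had an unadjusted p under 0.05, against 13.8%, of which 4 (2.60%) were higher, against 7.63%, and 14 (9.09%) lower, against 6.13%. In both fits the share in either direction and the share of genes that were higher lay below the background. The share of genes that were lower lay close to the background without the block and above it with the block. Without the siDicer array of passage 56, 82 of the 154 genes (53.2%) were lower, against 52.8% of all tested genes. Their median difference was then −0.0086, against −0.0057, and 4 (2.60%) had an unadjusted p under 0.05, against 7.22%. The siDicer array of passage 56 was singled out from these same values. With 1 of the other arrays left out instead, 96 (siScr of passage 54) to 105 (siScr of passage 56) of the 154 were lower. For those arrays the share of all tested genes was not counted.

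**Figure D1:**
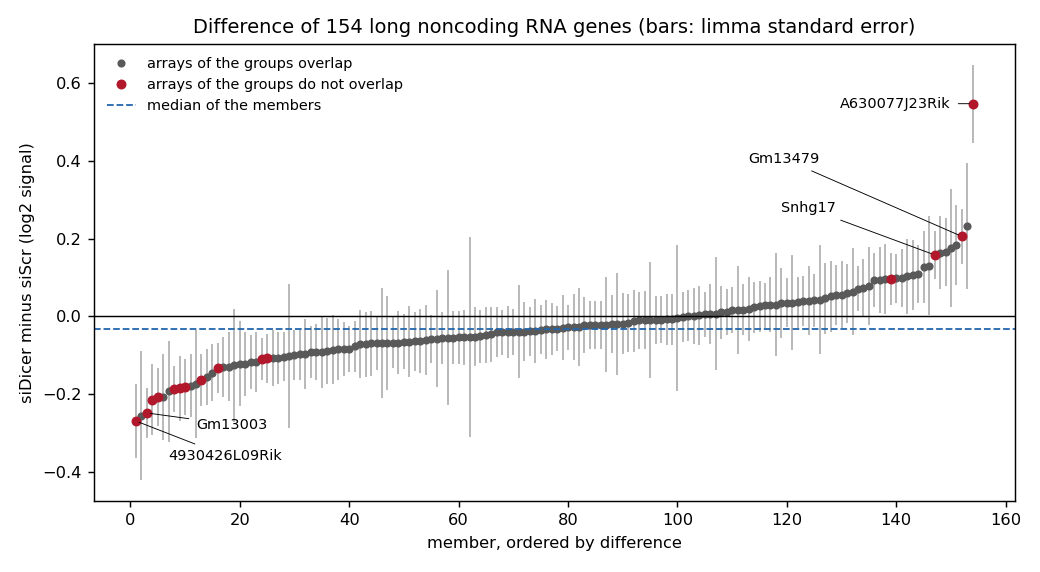
Difference of each of the 154 long noncoding RNA genes (vertical axis, siDicer minus siScr, log2 signal) in order of size (horizontal axis), with the limma standard error as a bar. Red points are the 15 genes whose arrays do not overlap between the groups; A630077J23Rik stands alone at 0.55, and the dashed line marks the median at −0.032.

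A630077J23Rik had the largest difference of the set. Its log2 signals were 7.10, 6.88 and 6.98 in siDicer at passages 47, 54 and 56, and 6.59, 6.47 and 6.25 in siScr. All siDicer arrays were above all siScr arrays. The means were 6.99 ± 0.11 (SD, n = 3) and 6.44 ± 0.17 (SD, n = 3), a difference of 0.55 ± 0.10 (standard error), or 1.46-fold. The gene did not pass without the block (limma, adjusted p = 0.130) and rose in the limma fit with the block, at an adjusted p of 0.0286. It was higher at all 3 passages, by 0.50, 0.41 and 0.73. The call with the block was lost without passage 47 (limma, adjusted p = 0.164) and when dim genes were kept in the test (adjusted p = 0.0508), while the difference stayed between 0.45 and 0.63 with any 1 array left out. The nearest coding gene, Olfr159, an olfactory receptor gene on the opposite strand that does not overlap it, differed by 0.11 ± 0.10 (limma, adjusted p = 0.847). The 9-base run marked in its start region lies 71 bases before the start and occurs in 166 of 32851 RefSeq start windows (0.505%) and in 1 window of this set. It was picked out after the values were seen.

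The groups did not overlap for 15 of the 154 genes (9.74%), against a background of 14.4%: 4 (2.60%) were higher, against 6.67%, and 11 (7.14%) lower, against 7.76%. The 4 that were higher in siDicer were A630077J23Rik, Gm13479, Snhg17 and Ptprtos. The 11 that were lower were Gm13003, Gm6297, 4930426L09Rik, Sp3os, D930015M05Rik, Gm8273, Gm15850, 4921531C22Rik, Gm12927, Gm13070 and E030042O20Rik. Apart from A630077J23Rik none of these passed the adjusted threshold in either fit, and the values that follow are a description of the genes with the smallest unadjusted p and of the classes listed by function.

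Gm13003 had the smallest unadjusted p among the genes that were lower. Its log2 signals were 5.89, 5.99 and 5.86 in siDicer and 6.13, 6.15 and 6.21 in siScr, in the order of passages 47, 54 and 56. The difference was −0.25 ± 0.064 (limma, adjusted p = 0.267, and 0.126 with the block). The gaps between the groups were larger than the spread within either, and the nearest coding gene, Zbtb40, differed by 0.09. Gm6297 overlaps Aptx, which encodes the DNA repair enzyme aprataxin, on the same strand. It read 5.31, 5.37 and 5.25 in siDicer and 5.53, 5.49 and 5.47 in siScr, a difference of −0.19 ± 0.059 (limma, adjusted p = 0.394). Aptx differed by −0.15 (limma, adjusted p = 0.716). Both lay lower without passing, and probes on the same strand of overlapping genes may share transcripts, which was not tested.

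4930426L09Rik had the lowest difference of the set, −0.27 ± 0.095 (limma, adjusted p = 0.457). It read 5.84, 5.82 and 5.75 in siDicer and 6.26, 5.88 and 6.07 in siScr. The siScr arrays spread more widely than the siDicer arrays, and the difference moved from −0.18 without the siScr array of passage 47 to −0.36 without that of passage 54. The coding gene next to it on the opposite strand, Pip4k2a, a lipid kinase gene, differed by −0.34 ± 0.066 (limma, adjusted p = 0.174), and it fell in the fit with the block (adjusted p = 0.0450).

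Sp3os overlaps Sp3, the gene of a GC-box transcription factor. Its signals were 6.55, 6.49 and 6.49 in siDicer and 6.76, 6.59 and 6.81 in siScr, with a difference of −0.21 ± 0.075 (limma, adjusted p = 0.468). Sp3 differed by −0.21 as well (limma, adjusted p = 0.526). D930015M05Rik, whose start region is printed above, read 5.45, 5.57 and 5.48 against 5.57, 5.69 and 5.78, a difference of −0.18, while Cry2 on the opposite strand differed by 0.05. The groups of D930015M05Rik were separated by a margin that shows only beyond the second decimal.

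Gm8273 read 7.24, 7.36 and 7.24 in siDicer and 7.41, 7.50 and 7.43 in siScr, a difference of −0.16, and its neighbour Rab2a, a small GTPase gene of the secretory pathway, differed by 0.07. Gm15850, next to the kinesin gene Kif21b (0.06), read 6.08, 6.11 and 6.07 against 6.50, 6.18 and 6.21. Its difference of −0.21 was −0.11 without the siScr array of passage 47, which was the high one. 4921531C22Rik had means of 7.04 ± 0.073 (SD, n = 3) in siDicer and 7.22 ± 0.13 (SD, n = 3) in siScr, a difference of −0.19 that was −0.11 without the same siScr array. Its neighbour Taf4, a subunit gene of the general transcription factor TFIID, differed by −0.08. The other 3 genes with groups that did not overlap had smaller differences, −0.13 for Gm12927, which overlaps the claudin gene Cldn19, and −0.11 for both Gm13070 and E030042O20Rik, the latter next to Nfe2l2.

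**Figure D2:**
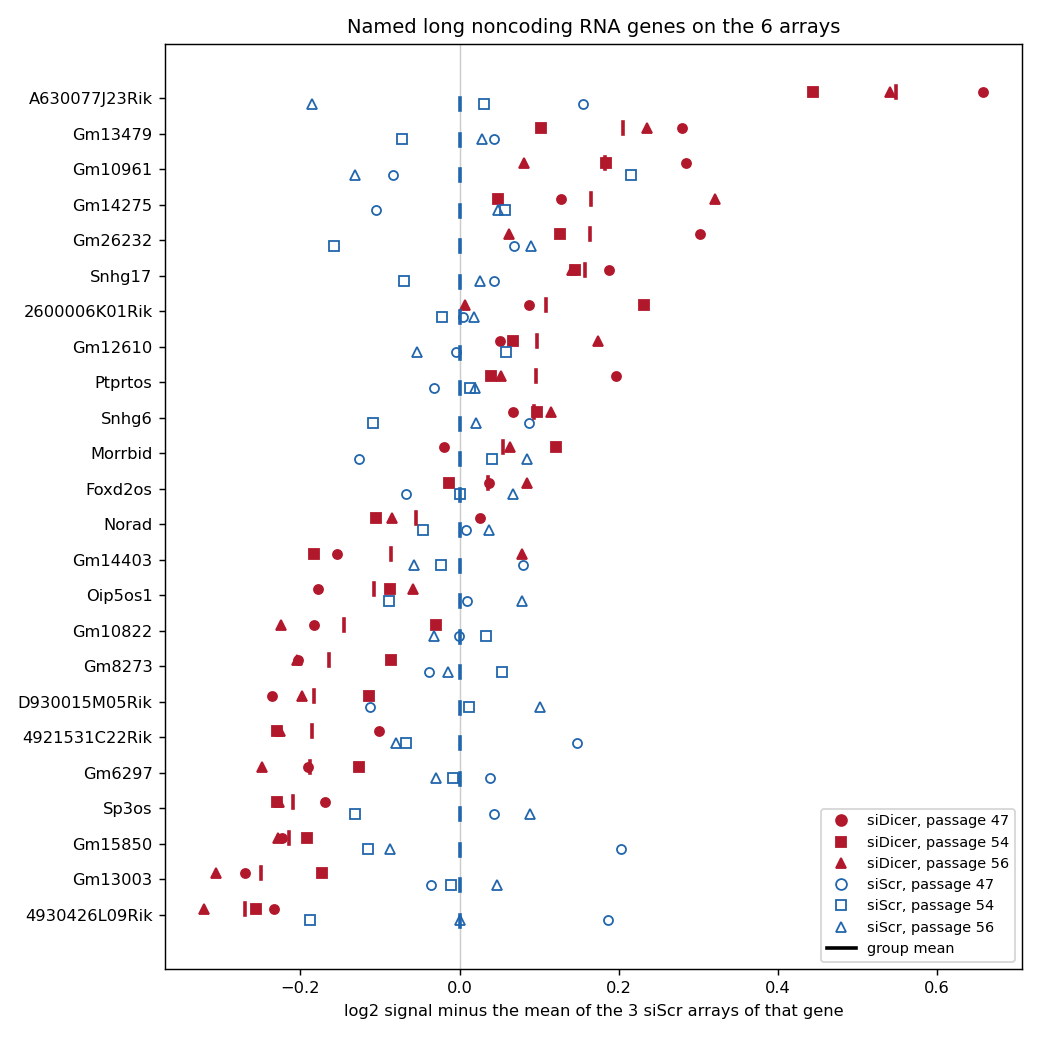
Log2 signal of 24 named long noncoding RNA genes on each array, less the mean of the gene's 3 siScr arrays (horizontal axis). Filled red symbols are siDicer and open blue symbols siScr, the shape gives the passage and the upright stroke the group mean; A630077J23Rik has the widest gap between the groups, with every siDicer array above every siScr array.

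Among the genes that were higher, Gm13479, next to the gene of the transcription factor Zeb2, read 6.53, 6.35 and 6.49 in siDicer and 6.29, 6.18 and 6.28 in siScr. The difference was 0.21 ± 0.072 (limma, adjusted p = 0.452, and 0.164 with the block), and every siDicer array was above every siScr array. Gm10961 differed by 0.18, and by 0.12 to 0.29 with 1 array left out (siScr of passage 56 and of passage 54). Gm14275 differed by 0.17, and by 0.088 without the siDicer array of passage 56. The groups overlapped in both. 2600006K01Rik differed by 0.11, and by 0.047 without the siDicer array of passage 54. Gm12610, which overlaps the cell cycle inhibitor gene Cdkn2b on the opposite strand, differed by 0.10, and by 0.059 without the siDicer array of passage 56, while Cdkn2b itself differed by 0.12. Ptprtos, opposite the phosphatase gene Ptprt, differed by 0.10, most of it from passage 47 (0.23, against 0.03 at each of passages 54 and 56), and by 0.046 without the siDicer array of passage 47. 4930445K14Rik had the second highest difference, 0.23 ± 0.16. It read 7.06, 6.69 and 6.76 in siDicer and 6.71, 6.25 and 6.85 in siScr, so the direction turned at passage 56, and among the fits with the block it passed when passage 56 was left out.

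The small nucleolar RNA hosts measured were Snhg17 and Snhg6. Snhg17, whose span holds 2 small nucleolar RNA genes, read 6.48, 6.44 and 6.43 in siDicer and 6.34, 6.22 and 6.32 in siScr. The difference was 0.16 ± 0.062 (limma, adjusted p = 0.528), with all siDicer arrays above all siScr arrays. Its neighbour Lbp, which encodes lipopolysaccharide binding protein, differed by 0.30 ± 0.16 (limma, adjusted p = 0.668). Snhg6, whose span holds Snord87, read 6.39, 6.42 and 6.44 in siDicer and 6.41, 6.21 and 6.34 in siScr, a difference of 0.09 with overlapping groups, and 0.04 without the siScr array of passage 54. No other gene of the host list was in the set.

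Of the long noncoding RNAs listed for a known function, 4 were in the set. Norad read 9.20, 9.07 and 9.09 in siDicer and 9.18, 9.13 and 9.21 in siScr, a difference of −0.055 ± 0.068 (limma, adjusted p = 0.888) that ran from −0.095 without the siDicer array of passage 47 to −0.030 without that of passage 54. Oip5os1 read 8.71, 8.80 and 8.83 in siDicer and 8.90, 8.80 and 8.97 in siScr, a difference of −0.11 ± 0.073 (limma, adjusted p = 0.750), and at passage 54 the arrays were level. Without the siScr array of passage 56 the difference was −0.068. Morrbid differed by 0.055 ± 0.077, and by −0.0084 without the siScr array of passage 47. Its neighbour Bcl2l11, the gene of the apoptosis activator BIM, differed by −0.09 (limma, adjusted p = 0.804). Foxd2os, beside the forkhead gene Foxd2, differed by 0.04, and by 0.0021 without the siScr array of passage 47, and Foxd2 by −0.15 (limma, adjusted p = 0.578). In all 4 the groups overlapped.

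Array signals depend on the probes of each gene as well as on the amount of RNA, so their order is one of signal and not of abundance. Mean log2 signals ran from 5.37 to 11.57 with a median of 5.82: 93 genes lay from 5.36 to under 6, 47 from 6 to under 7, 10 from 7 to under 8 and 4 at 8 or more. The 5 with the highest signal were Gm26232, Gm14403, Norad, Oip5os1 and Gm10822. Gm26232 read 11.79, 11.62 and 11.55 in siDicer and 11.56, 11.33 and 11.58 in siScr, a difference of 0.16 ± 0.094 (limma, adjusted p = 0.701) that was 0.08 without the siScr array of passage 54. The span of Gm26232 by its RefSeq limits holds the small nuclear RNA gene printed above, although that gene lies before the start used for the printed window. Which of these transcripts the probes read was not tested. Gm14403, a provisional gene next to the zinc finger gene Zfp970, differed by −0.09, with siDicer lower at passages 47 and 54 and higher at passage 56, and its difference ran from −0.17 without the siDicer array of passage 56 to −0.038 without that of passage 54. Gm10822, opposite Atf2, the gene of a stress-activated transcription factor, read 7.73, 7.88 and 7.69 in siDicer and 7.91, 7.95 and 7.88 in siScr, a difference of −0.15 ± 0.073, and its groups overlapped by a narrow margin. Gm12915, whose span holds Mir698 (strands were not compared), differed by 0.00 ± 0.077, with no value for Mir698 itself. The genes nearest the level threshold were Gm12408 and Grin1os inside it (both at 5.37, differences 0.13 and −0.09) and B330016D10Rik and C920021L13Rik outside it (5.356 and 5.353, differences 0.02 and 0.08). Gm12408 was 0.061 without the siScr array of passage 56, and Grin1os −0.0048 without the siDicer array of passage 56.

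Within passages, the genes lay lower in siDicer most often at passage 56. At passage 47, 80 of the 154 (51.9%) were lower, where 51.6% of all tested genes were. At passage 54, 88 (57.1%) were lower, against 50.8%, and at passage 56, 109 (70.8%), against 55.4%. The median differences were −0.010, −0.014 and −0.074 at passages 47, 54 and 56, while over all tested genes they were −0.005, −0.002 and −0.019. Protein-coding genes above the same level threshold had medians of −0.002, 0.024 and −0.039, with 50.5%, 42.9% and 62.4% lower. Their median signal was log2 7.20, against 5.82 for the 154 genes, so the sets share a lower limit and are not matched in level. Each passage has 1 array a group, so none of these was tested. Of the 154 genes, 42 (27.3%) had the same direction at all 3 passages, against 36.1% of all tested genes: 9 (5.84%) were higher each time, against 16.1%, and 33 (21.4%) lower each time, against 20%. On the siDicer array of passage 56, 77.9% of the genes lay below their own mean, and on the siScr array of that passage 42.2% did. These shares come from the same values as the differences and are not separate evidence. Why the siDicer array of passage 56 differs was not tested.

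**Figure D3:**
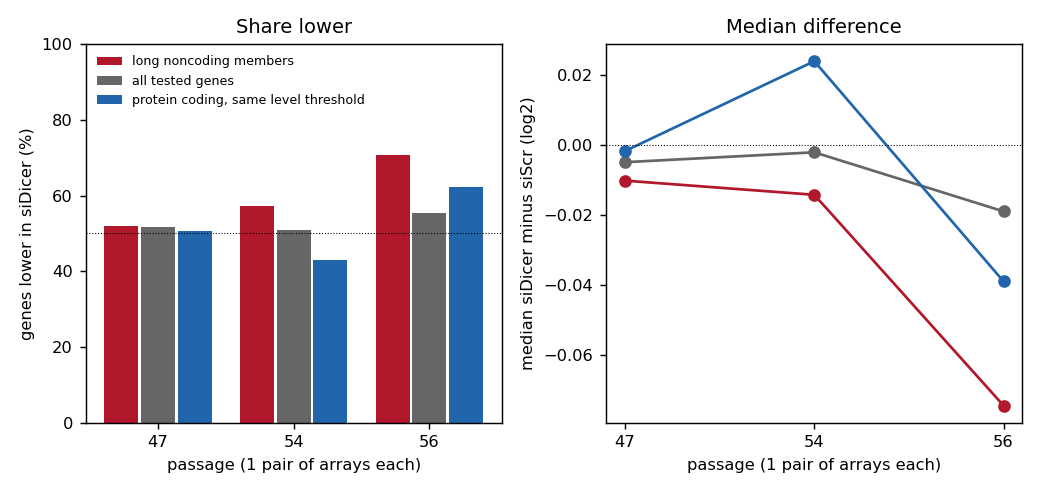
Left, percent of genes lower in siDicer than in siScr at each passage (vertical axis from 0 to 100), for the 154 long noncoding RNA genes (red), all 5336 tested genes (grey) and 2699 protein-coding genes above the same level threshold (blue). Right, the median difference in log2 signal; the red line drops to −0.074 at passage 56, where 70.8% of the long noncoding RNA genes were lower.

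The passages differed as well. For 120 of the 154 (77.9%) the range of the 3 passage means was wider than the difference between the groups, as for 77.2% of all tested genes; a range over 3 means is expected to be wider than a difference of a pair, and no test was made of it. The range was over 0.4 for 11 genes (7.14%, against 5.13%). Gm6634 had the widest, 0.80, with passage means of 5.39, 6.18 and 5.64 at passages 47, 54 and 56 and a group difference of −0.05. Gm7160 (7.22, 6.65 and 6.90) and Gm16069 (7.68, 7.12 and 7.37) both spanned 0.56 and were highest at passage 47 in both groups. The antisense gene Ttc39aos1 spanned 0.52 and AA543186 0.51, the latter with the second lowest group difference, −0.26 ± 0.17. At the other end, Phtf1os stayed between 6.48 and 6.53 on all arrays. By passage mean, passage 56 was lowest for 71 of the 154 genes (46.1%), against 28.5% of all tested genes, and highest for 18 (11.7%), against 27.8%. That low mean was not shared by both groups. On the siDicer array of passage 56, 77.9% of the 154 genes lay below their own mean, against 42.2% on its siScr array.

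Gm16357 and Gm11009, both on chromosome 2, turned direction between passages together. Gm16357 was −0.51, −0.24 and 0.37 at passages 47, 54 and 56, and Gm11009 −0.33, −0.15 and 0.50. Their signals correlated at 0.926 over the 6 arrays, a description of a pair picked after the values were seen. The sharing of probes or sequence between them was not tested.

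By position in RefSeq, 86 of the 154 genes overlapped a protein-coding gene, 57 of them on the opposite strand and 3 on the same strand, with the strand of both not listed for 26. The median difference was −0.028 for those that overlapped and −0.039 for the 68 that did not, and 66.3% and 64.7% were lower. The 13 genes with the ending os, antisense by name, had a median of −0.052, with 9 lower. The nearest coding gene was tested for 120 of the 154, which made 119 different coding genes. In 68 of 120 the long noncoding RNA gene and its neighbour had the same direction, lower in 42 and higher in 26. Across these pairs the differences correlated at 0.23 (0.22 without A630077J23Rik), a description over pairs that share the same 6 arrays. Where the genes overlapped, 37 of 64 had the same direction, and where they did not, 31 of 56. Of the neighbours, 60 were lower. Without the block 0 passed, against 0.0187% of all tested genes, and with it 1, Pip4k2a, against 1.76%.

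**Figure D4:**
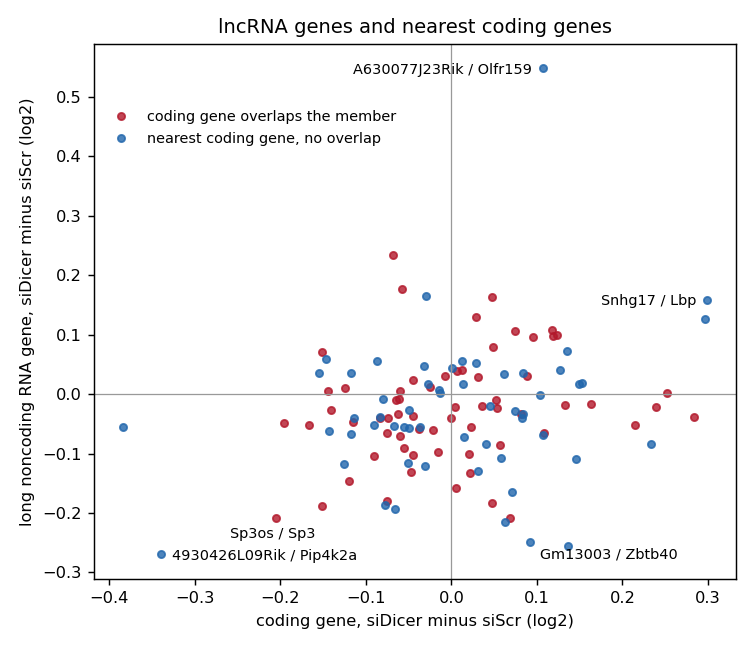
Difference of the nearest protein-coding gene (horizontal axis) and of the long noncoding RNA gene (vertical axis), both siDicer minus siScr in log2 signal, for 120 pairs, with overlapping pairs in red and other pairs in blue. The cloud centres near 0 on both axes (r = 0.23), with A630077J23Rik and Olfr159 at the top and 4930426L09Rik and Pip4k2a at the lower left.

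The RefSeq start windows, 250 bases before to 50 after the start, were read for 124 of the 154 genes, which have 152 windows, and set beside all 32851 windows. The E-box CACGTG stood in 10 windows (6.58%, against 7.15%), and CATGTG or its reverse complement CACATG, the core of the M-box that the melanocyte factor MITF binds, in 30 windows of 26 genes (19.7%, against 14.2%). A window counted once however many matches it held, and both strands were read. TATAA on the gene's strand in the 50 bases before the start stood in 2 windows (1.32%, against 4.93%). A run of 5 or more pyrimidines that begins with C at the start, the mark of many genes of the translation machinery and of small nucleolar RNA hosts, was in 3 windows (1.97%, against 2.51%), those of Oip5os1, Ptprtos and A930005H10Rik, and not in the window of Snhg17 printed above. The median GC content was 55.3%, against 52.7%. A match of letters is a description of the window and not of a bound site.

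Of 69 listed genes for factors that decay, edit or bind long noncoding RNA, 14 were tested, 6 higher and 8 lower, with a median difference of −0.028. None passed without the block (limma). Of the 14, 3 had an unadjusted p under 0.05, Xrn2, Upf2 and Exosc3, and all 3 were lower. The share over all tested genes was 8.51% in either direction and 3.92% lower. With passage as a block 1 fell at an adjusted p under 0.05, where the share over all tested genes was 0.618%. That was Xrn2, the nuclear 5′ to 3′ exonuclease. It read 8.23, 8.26 and 8.44 in siDicer and 8.81, 8.85 and 8.79 in siScr, a difference of −0.51 ± 0.075 (limma, adjusted p = 0.113, and 0.0286 with the block). Upf2, of nonsense-mediated decay, differed by −0.20, and the exosome subunit Exosc3 by −0.20, whereas the subunits Exosc10 and Exosc2 differed by 0.13 and 0.14. Zcchc7, of a complex that feeds RNA to the nuclear exosome, differed by −0.18.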

How the data were processed

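RNA of 3 siDicer and 3 siScr samples of Melan-a cells was measured on Affymetrix Clariom D mouse arrays. The values deposited by the authors are log2 signals per transcript cluster, 16383 clusters on 6 arrays with none missing. They span 1.70 to 13.70, and the medians of the arrays lie between 4.63 and 4.68. The submitters' processing notes name Affymetrix Expression Console. How signals were summarised and normalised, and on which build, is not given in the sources used here; coordinates of clusters are therefore left out. The log2 scale was inferred from the range of values. Precision is limited by the number of arrays.

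The platform annotation and the RefSeq mouse gene table (GRCm38.p6) named 7677 clusters with 1 gene. Another 308 had several genes or names not resolved to 1 gene, and 8398 had none. In all, 312 symbols were brought up to date. The brightest cluster stood for each of 7623 genes, and genes under the 30th percentile of mean signal (log2 4.15) were left out, which left 5336. All 454 tested long noncoding RNA genes were in the fit. Of the 154 genes, 1 had several clusters. The siDicer and siScr arrays were compared by limma 3.58.1 (R 4.3.3), using lmFit and a trended eBayes, in two-sided tests adjusted by Benjamini-Hochberg over the 5336 genes at 0.05. The fit without the block was tested on simulated data without a passage effect, and the fit with the block on simulated data with one. The fit without the block was therefore not tried on arrays that share a passage effect. Standard errors are those of the fit. Fold changes are ratios on the linear scale, taken from the log2 differences.

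The labels tie each replicate number to 1 passage in both groups, so the numbers pair the samples. Deviations from the group means over all tested genes correlated at 0.42, 0.62 and 0.070 for passages 47, 54 and 56, and over the 154 genes at 0.42, 0.57 and −0.15. Passage was used as a block in an alternative fit.

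The genes, the lists and the rules were chosen with earlier results of these data known. Named are the genes that passed in either fit, the 8 smallest p in each direction, the 5 brightest, the hosts of small nucleolar RNAs and microRNAs, those of known function, the 2 nearest the threshold on each side, up to 6 decay factors by smallest p, and neighbours of genes named for their p. Other genes named were chosen after their values were seen. Start windows and mature microRNA sequences are those of RefSeq; 30 of the 154 genes had no window. Alternatives were leaving out each array, the block, other filters on dim genes, quantile normalisation, median centring, array weights, no trend, all clusters in the fit, the mean of a gene's clusters and other level thresholds.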

Additional observations from a re-analysis of the deposited data

How the results depend on the processing

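With passage as a block the count of all tested genes that passed moved from 1 to 94, and that of the long noncoding RNA genes from 0 to 1; those with an unadjusted p under 0.05 went from 10 to 18. Without the block, leaving out 1 array gave 0 (siDicer replicate 3) to 2 (siScr replicate 2) of all tested genes, and array weights gave 14. The long noncoding RNA genes at an unadjusted p under 0.05 were 4 (siDicer replicate 3, 2.60% against 7.22% of all tested genes) to 12 (siDicer replicate 2) with 1 array left out. They were 6 with all clusters in the fit. For the other left-out arrays, the left-out passages and all clusters in the fit, the shares of all tested genes at that p, or higher or lower in siDicer, were not counted. With the block, leaving out a passage gave 3 (passage 47), 18 (passage 54) and 153 (passage 56) of all tested genes, and 22 with dim genes kept; 0 long noncoding RNA genes passed without passage 47 or with dim genes kept and 2 without passage 56, and 11 had an unadjusted p under 0.05 without passage 47. The block changed no call of another long noncoding RNA gene. A threshold 1 log2 unit higher left 32 genes with 20 lower (62.5%), and 1 unit lower gave 387 with 244 lower, where 54.5% of all tested genes were lower. Morrbid ranged from −0.0084 (without siScr replicate 1) to 0.097 (without siScr replicate 3). The cause of these moves was not tested, beyond the smaller or larger number of genes or arrays. With 1 array left out, 17 of the 26 genes named by rule shifted more than 1.5 times. Leaving out both arrays of passage 56 was chosen after seeing the data; the median was then −0.009 with 69 genes higher. Signal over background could not be measured without scanner files.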

Other observations

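Below the level threshold, 300 further long noncoding RNA genes were tested. Of these 111 were higher and 189 lower in siDicer (63.0%, against 54.5% of all tested genes), with a median difference of −0.027 on the log2 scale and a range of −0.24 to 0.29. None passed in limma with or without passage as a block, and 19 (6.33%, against 8.51%) had an unadjusted p under 0.05. Of these, 6 were higher and 13 lower, where 4.59% of all tested genes were higher and 3.92% lower at that p. With the block it was 28 (9.33%, against 13.8%), 9 higher and 19 lower, where 7.63% of all tested genes were higher and 6.13% lower. The highest was 2900060B14Rik at 0.29 (limma, adjusted p = 0.468, and 0.154 with the block). By passage 47.0%, 64.3% and 62.7% were lower at passages 47, 54 and 56, against 51.6%, 50.8% and 55.4% of all tested genes. On the siScr array of passage 54, 28.7% of these dimmer genes lay below their own mean, against 44.2% of the 154 brighter ones, and on the siDicer array of passage 56 it was 72.0% against 77.9%.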
